A study of Mus musculus with 9 samples.

Results

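The 37 genes described here make up the core machinery of macroautophagy in the mouse: the ULK kinase complex with the copper-binding kinases ULK1 and ULK2, the class III lipid kinase complex, the lipid-binding and lipid-transfer proteins, the conjugation enzymes, the ATG4 proteases, the ATG8 proteins and the cargo receptors. They were chosen by symbol, as the rows of the deposited count table whose Ensembl identifiers map to the listed names. The list was drawn up by gene function, with earlier results of these data known. The table holds 52661 gene rows, of which 18408 passed a filter on low counts and were tested, and all 37 genes were among them. The lowest count of any of the 37 in any library was 70, for Atg10 in WT cells. RNA was sequenced from immortalised embryonic fibroblasts (MEFs) of C57BL/6 mice, carrying the T and t antigens in every group. There were 3 libraries of Ctr1 -/- cells, which the titles call FloxedCtr1, given bathocuproine disulfonic acid (BCS), a copper chelator, at 500 uM for 48 h (Ctr1-null+BCS). There were 3 libraries of Ctr1 -/- cells without BCS (Ctr1-null), with the same name in their titles, and 3 of wild type cells (WT). The series' own design text gives the BCS dose in mM in place of uM. All groups grew in DMEM with a modified N2 supplement and growth factors. The labels do not say whether replicates were separate cultures, so p-values measure only the spread between these libraries. They also do not say how many embryos or clones each genotype came from, so genotype and cell line cannot be told apart here. No WT cells with BCS were among the samples, so a response to BCS that depends on Ctr1 could not be tested.

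In macroautophagy a double membrane grows around cytoplasmic cargo, closes to an autophagosome and fuses with a lysosome. The ULK complex starts the process, the class III lipid kinase marks the membrane with a phosphoinositide, and an enzyme cascade related to ubiquitination couples ATG8 proteins to that membrane, where cargo receptors bind them. Copper is known to bind the kinases ULK1 and ULK2 and to raise their activity, a property of the proteins that transcript levels do not show. CTR1, which Slc31a1 encodes, brings copper into the cell across its outer membrane.

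Library totals ran between 38962036 and 57206337 counts. The targeted gene Slc31a1 averaged 2.49 ± 0.77 CPM (a count relative to its library's total, scaled by TMM) in Ctr1-null+BCS, 2.61 ± 1.2 in Ctr1-null and 55.2 ± 0.74 in WT (SD, n = 3 each), with a log2 fold change of -4.40 ± 0.33 (SE) in Ctr1-null against WT (adjusted p = 0.00303). Of 10 fibroblast markers 9 passed the filter, and their summed level was 8422 to 10319 CPM in Ctr1-null+BCS, 8042 to 9693 CPM in Ctr1-null and 9087 to 10549 CPM in WT. Of 6 fat cell markers 4 passed, and their sum was 67.3 to 81.7 CPM in Ctr1-null+BCS, 58.7 to 85.5 CPM in Ctr1-null and 24.4 to 30.3 CPM in WT, while Adipoq was at most at 4 counts in any library. The 6 neural markers, of which 5 passed, summed to 120 to 145 CPM in Ctr1-null+BCS, 172 to 201 CPM in Ctr1-null and 156 to 244 CPM in WT. Markers of muscle (3.48 to 9.30, 1.63 to 4.54 and 0.73 to 1.37 CPM, 2 of 5 passed, Myod1 at 0) and of macrophages and blood (12.5 to 22.0, 9.54 to 17.7 and 5.73 to 12.6 CPM, 3 of 6 passed, Adgre1 and Tyrobp at 0) are given for Ctr1-null+BCS, Ctr1-null and WT in that order. Epithelial markers (2 of 7 passed) summed to 9.89 CPM at most and endothelial markers (3 of 5 passed) to 38.1 CPM at most. In each group 3 of 10 fibroblast markers, 6 of 7 epithelial markers, 5 of 6 markers of macrophages and blood and 2 of 6 fat cell markers were under 1 CPM. Of 5 endothelial markers 2 were under 1 CPM in Ctr1-null+BCS and 3 in Ctr1-null and in WT. For muscle this held for 4 of 5 markers (5 in WT) and for neural markers for 3 of 6 (4 in WT). A sum can thus rest on few genes and does not show which cells were present. The part of these marker differences in the results below was not tested. In bulk RNA, fewer cells that express a gene and less RNA per cell cannot be told apart.

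The regions before the transcription starts of Ulk1 and Ulk2, the copper-binding kinases, and of Atg10 and Atg101, which had the largest and the lowest log2 fold change among the 37 genes in Ctr1-null+BCS against WT, are shown here. Each run is the 250 bases before the RefSeq start (GRCm38.p6), 5′ to 3′ on the gene's strand, with matches to the motifs searched in capitals.

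Ulk1 (chr5:110810082-110810331, minus strand): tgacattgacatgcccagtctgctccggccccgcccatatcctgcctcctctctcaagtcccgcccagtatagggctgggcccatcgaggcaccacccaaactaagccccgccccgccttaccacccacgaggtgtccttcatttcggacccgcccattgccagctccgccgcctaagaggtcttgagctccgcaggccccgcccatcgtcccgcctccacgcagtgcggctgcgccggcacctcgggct

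Ulk2 (chr11:61855093-61855342, minus strand): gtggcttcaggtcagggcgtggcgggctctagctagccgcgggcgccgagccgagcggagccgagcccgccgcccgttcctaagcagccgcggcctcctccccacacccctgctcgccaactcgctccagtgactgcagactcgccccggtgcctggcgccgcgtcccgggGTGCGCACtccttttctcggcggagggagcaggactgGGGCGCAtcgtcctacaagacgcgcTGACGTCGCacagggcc

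Atg10 (chr13:91223988-91224237, minus strand): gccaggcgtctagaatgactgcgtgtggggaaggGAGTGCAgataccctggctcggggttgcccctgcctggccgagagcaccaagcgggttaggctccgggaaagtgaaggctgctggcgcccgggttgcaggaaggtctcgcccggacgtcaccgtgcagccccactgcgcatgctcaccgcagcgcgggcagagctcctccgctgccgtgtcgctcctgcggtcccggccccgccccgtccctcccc

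Atg101 (chr15:101284051-101284300, plus strand): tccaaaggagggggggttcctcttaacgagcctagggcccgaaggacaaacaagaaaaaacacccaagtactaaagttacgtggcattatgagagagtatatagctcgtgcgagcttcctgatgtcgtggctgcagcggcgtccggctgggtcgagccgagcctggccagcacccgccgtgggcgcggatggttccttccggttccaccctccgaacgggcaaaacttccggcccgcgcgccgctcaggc

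In the Ulk2 run the capitals mark TGACNNNGC, the antioxidant response element, and TGCGCNC, the form with G of the metal response element, on either strand. In the Atg10 run they mark TGCACNC, the form of the metal response element with A. RefSeq windows of 300 bases (250 before the start) were found for 30 of the 37 genes, 34 windows in all. The form with G was found in 23.5% of these windows and in 15.4% of all 32851 windows of that length, the form with A in 11.8% and 12.6%, and the antioxidant response element in 11.8% and 12.4%. CACGTG, the E-box read by TFEB and related factors, was in 11.8% of the windows (Atg14, Atg3, Atg5 and Atg7) and in 7.15% of all windows, and TGATGNAA, the amino acid response element, in 0 of them and in 3.97% of all. The RefSeq start of the Atg7 window lies 9066 bases from the nearest transcript start of that gene in the GENCODE annotation. That of an Atg4a window lies 3062 bases from the nearest. All motifs were searched on both strands and may overlap. A match is a description of the letters.

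WT replicate 1 stood apart from WT replicates 2 and 3 in these genes. It was the lowest WT library for 23 of the 37 genes, the highest for 9 and the middle one for 5. For 27 of the 37 it lay farther from both other WT libraries than these lay from each other, with a median gap on the log2 scale of 0.17 to replicate 2 and 0.19 to replicate 3, against 0.05 between replicates 2 and 3. Over all genes tested these gaps were larger, 0.23 and 0.22 against 0.08, so the library stands apart beyond these genes. Ctr1-null replicate 1 also lay farther from replicates 2 and 3 of its group over all genes, by 0.18 and 0.20 against 0.12. The gap between WT replicates 2 and 3 was the smallest between libraries of any group. WT replicate 1 is thus not the only library that stands apart. Results against WT are also given without WT replicate 1, and leaving it out keeps only the 2 WT libraries that lie close together.

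Ctr1-null+BCS cells differed from WT in 6 of the 37 genes at an adjusted p under 0.05. Atg10, Map1lc3a, Optn, Atg4c and Atg7 were higher and Atg101 was lower, with fold changes between 0.804 and 2.07. Over all genes tested 15.8% passed this threshold in that comparison (8.56% higher and 7.28% lower), so 6 of 37 (16.2%) is close to the background. With library size alone as the scaling, 2064 of all genes were called higher and 784 lower, against 1576 and 1340 with TMM. Ctr1-null cells differed from WT in none of the 37 genes by this test, and Ctr1-null+BCS cells differed from Ctr1-null cells in none. Over all genes 0.0109% and 0.0543% passed in these 2 comparisons, which makes any call rare there. DESeq2 called 2 of the 37 genes in Ctr1-null against WT (Atg101 and Optn) and 1 in Ctr1-null+BCS against Ctr1-null (Atg4c). Over all genes it called 1056 and 711 in these comparisons, against 2 and 10 with edgeR. The edgeR shares are thus not the background for these calls. At an unadjusted p under 0.05 edgeR had 10 of the 37 in Ctr1-null+BCS against WT (32.9% of all genes), 6 in Ctr1-null against WT (17.6% of all genes) and 4 in Ctr1-null+BCS against Ctr1-null (14.7% of all genes). The 3 comparisons share libraries in pairs and are not independent.

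As a list the core machinery moved little. Their median log2 fold change was 0.04 in Ctr1-null+BCS against WT, and 0.01 over all genes tested, with 21 genes above 0 and 16 below. In Ctr1-null against WT it was -0.07, and 0.01 over all genes, with 14 above 0 and 23 below. For Ctr1-null+BCS against Ctr1-null it was 0.08, and 0.00 over all genes, with 29 above 0 and 8 below. Of all genes 50.3% were above 0 in that comparison and 50.7% in each of the other 2. The range of the 37 values was -0.31 to 1.05 in Ctr1-null+BCS against WT, -0.37 to 0.54 in Ctr1-null against WT and -0.08 to 0.51 in Ctr1-null+BCS against Ctr1-null. The libraries of the 2 groups did not overlap for 15 of the 37 genes in Ctr1-null+BCS against WT (13 higher and 2 lower), where 37.1% of all genes did not (20% higher and 17.1% lower). There were 8 such genes in Ctr1-null against WT (4 higher and 4 lower), where 18.1% of all genes did not overlap (9.49% higher and 8.62% lower). There were 9 in Ctr1-null+BCS against Ctr1-null (8 higher and 1 lower), where 24.3% of all genes did not (13.4% higher and 10.9% lower). With all libraries these totals lie near the shares of all genes. The split by direction leaned more to higher genes than over all genes in both comparisons of Ctr1-null+BCS, and this was not tested. Without WT replicate 1 there were 24 such genes in Ctr1-null+BCS against WT (14 higher and 10 lower), where 64.1% of all genes did not overlap (32.9% higher and 31.2% lower). There were then 27 in Ctr1-null against WT (9 higher and 18 lower), where 50.6% of all genes did not (25.2% higher and 25.4% lower). Comparing 2 libraries with 3 leaves fewer chances to overlap for every gene, so the shares of all genes hold this effect too. In Ctr1-null against WT the 27 of 37 lie above the share of all genes, through the lower genes. This excess was not tested. With WT replicate 1 left out the median was -0.04 in Ctr1-null+BCS against WT and -0.11 in Ctr1-null against WT, so the sign of that in Ctr1-null+BCS turned.

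**Figure D1:**
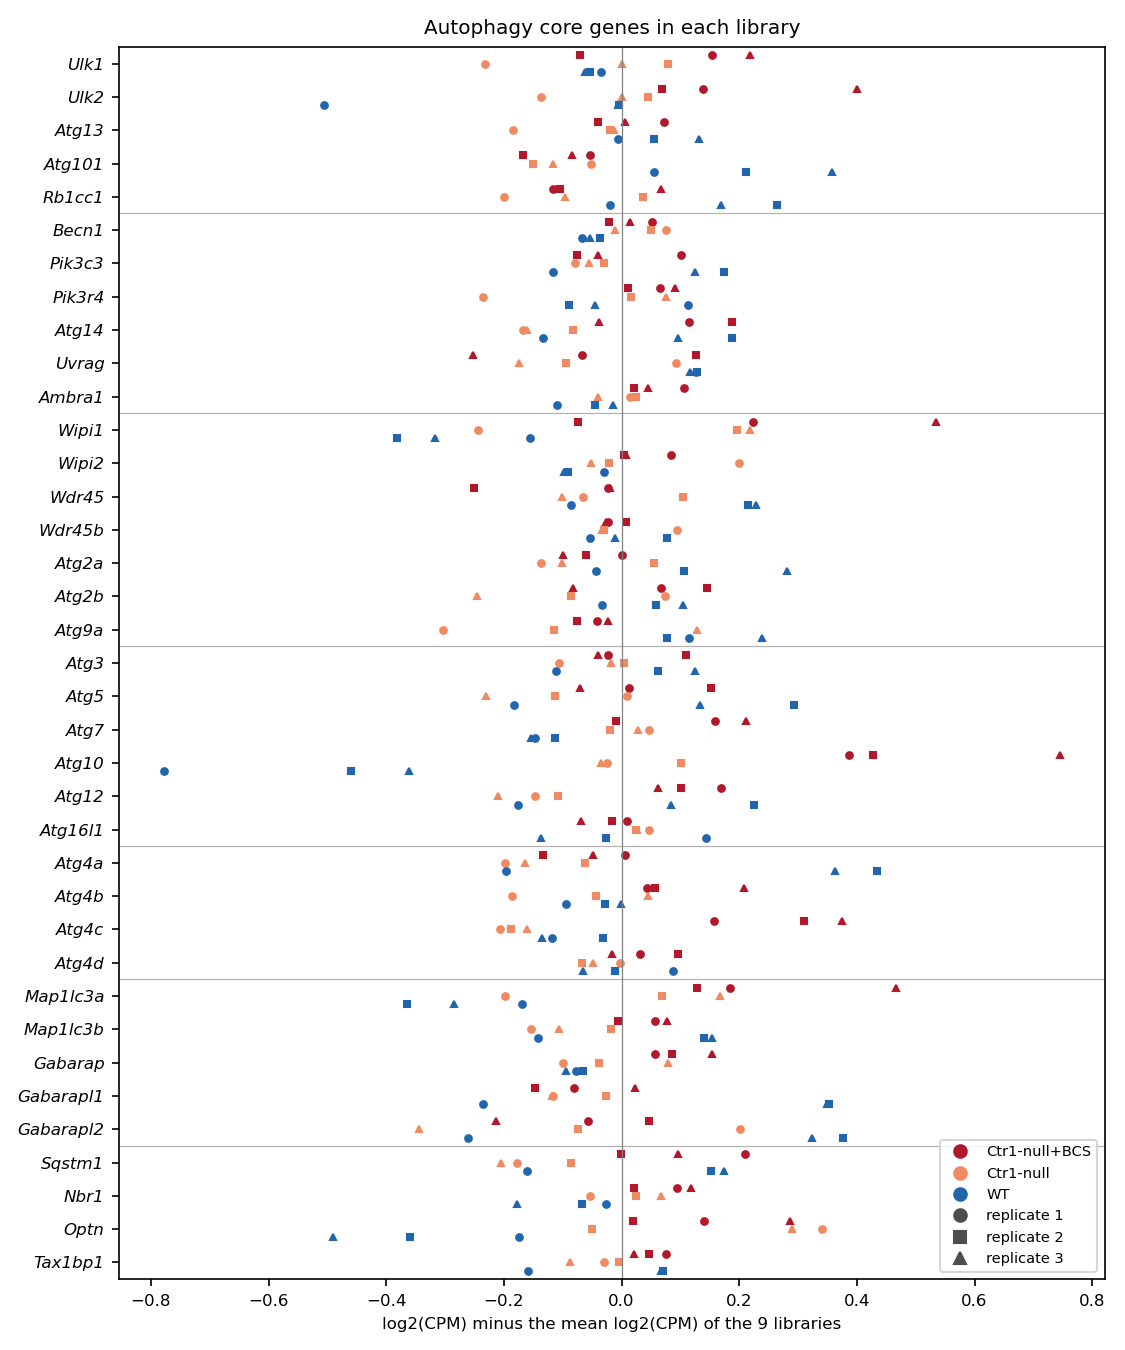
Each row is one gene of the autophagy core and each point one library, plotted as log2(CPM) minus the gene's mean over the 9 libraries; colours mark Ctr1-null+BCS, Ctr1-null and WT, shapes mark replicates 1 to 3, and lines separate the role groups. Most points lie close to 0, the 3 Ctr1-null+BCS points of Atg10 lie far to the right of its WT points, and WT replicate 1 (circle) lies apart from the other WT points in Ulk2, Atg4a, Gabarapl1 and Gabarapl2.

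The ULK complex holds the kinases ULK1 and ULK2, the scaffold RB1CC1 and the adaptors ATG13 and ATG101. Ulk1 (ENSMUSG00000029512.11, GRCm38 chromosome 5, 110784488 to 110810097, minus strand) was at 58.9, 50.3 and 61.5 CPM in Ctr1-null+BCS, 45.0, 55.9 and 52.9 CPM in Ctr1-null and 51.6, 51.0 and 50.7 CPM in WT. The WT libraries lay within the ranges of both other groups, and no pair of groups was separate. The log2 fold change of Ulk1 was 0.16 ± 0.10 in Ctr1-null+BCS against WT (adjusted p = 0.310), with a 95% interval of -0.07 to 0.38. It was 0.01 ± 0.10 in Ctr1-null against WT (adjusted p = 0.983), with an interval of -0.22 to 0.23, and 0.15 ± 0.10 in Ctr1-null+BCS against Ctr1-null (adjusted p = 0.522). These intervals do not reach a change of 2-fold in either direction.

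Ulk2 (ENSMUSG00000004798.14, chromosome 11, 61775649 to 61855073, minus strand) was at 38.9, 37.1 and 46.7 CPM in Ctr1-null+BCS, 32.2, 36.5 and 35.4 CPM in Ctr1-null and 24.9, 35.3 and 35.2 CPM in WT. All 3 Ctr1-null+BCS libraries lay above all Ctr1-null and WT libraries, and WT replicate 1 was the lowest of all. The log2 fold change was 0.36 ± 0.14 in Ctr1-null+BCS against WT and did not pass the test (adjusted p = 0.109; 0.0449 to 0.345 over the 19 alternative settings, past the threshold only with library size alone). It was 0.24 ± 0.14 in Ctr1-null+BCS against Ctr1-null (adjusted p = 0.473) and 0.13 ± 0.14 in Ctr1-null against WT (adjusted p = 0.665). The value in Ctr1-null+BCS against WT without WT replicate 1 was 0.21 and that in Ctr1-null against WT was -0.02.

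Atg101 (ENSMUSG00000037204.7, chromosome 15, 101284272 to 101290945, plus strand), which binds ATG13 within the complex, was at 19.7, 18.2 and 19.3 CPM in Ctr1-null+BCS, 19.8, 18.5 and 18.9 CPM in Ctr1-null and 21.3, 23.7 and 26.3 CPM in WT. Every Ctr1-null+BCS and Ctr1-null library lay below every WT library, and those of Ctr1-null+BCS and Ctr1-null overlapped. Atg101 was lower in Ctr1-null+BCS than in WT, with a log2 fold change of -0.31 ± 0.09 (adjusted p = 0.0472). The value in Ctr1-null against WT was nearly the same, -0.32 ± 0.09, but did not pass (adjusted p = 0.147; 0.0326 with DESeq2, and 0.0140 to 0.512 over all alternatives), and that in Ctr1-null+BCS against Ctr1-null was 0.01 ± 0.09 (adjusted p = 0.988). The call against WT in Ctr1-null+BCS lies at the threshold: it was kept without Ctr1-null replicate 1 (adjusted p = 0.0469) or WT replicate 1 (0.00795) and lost without any 1 of the other 7 libraries (0.0646 to 0.193). Rb1cc1 averaged 96.6 ± 7.0 CPM in Ctr1-null+BCS, 94.3 ± 7.7 in Ctr1-null and 110 ± 11 in WT, and Atg13 averaged 37.7 ± 1.5, 35.6 ± 2.4 and 39.0 ± 1.9 CPM in the same order. Neither passed the test in any comparison with all libraries. Rb1cc1 passed, when WT replicate 1 was left out, in Ctr1-null+BCS against WT (-0.27, adjusted p = 0.0466) and in Ctr1-null against WT (-0.30, adjusted p = 0.0491).

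**Figure D2:**
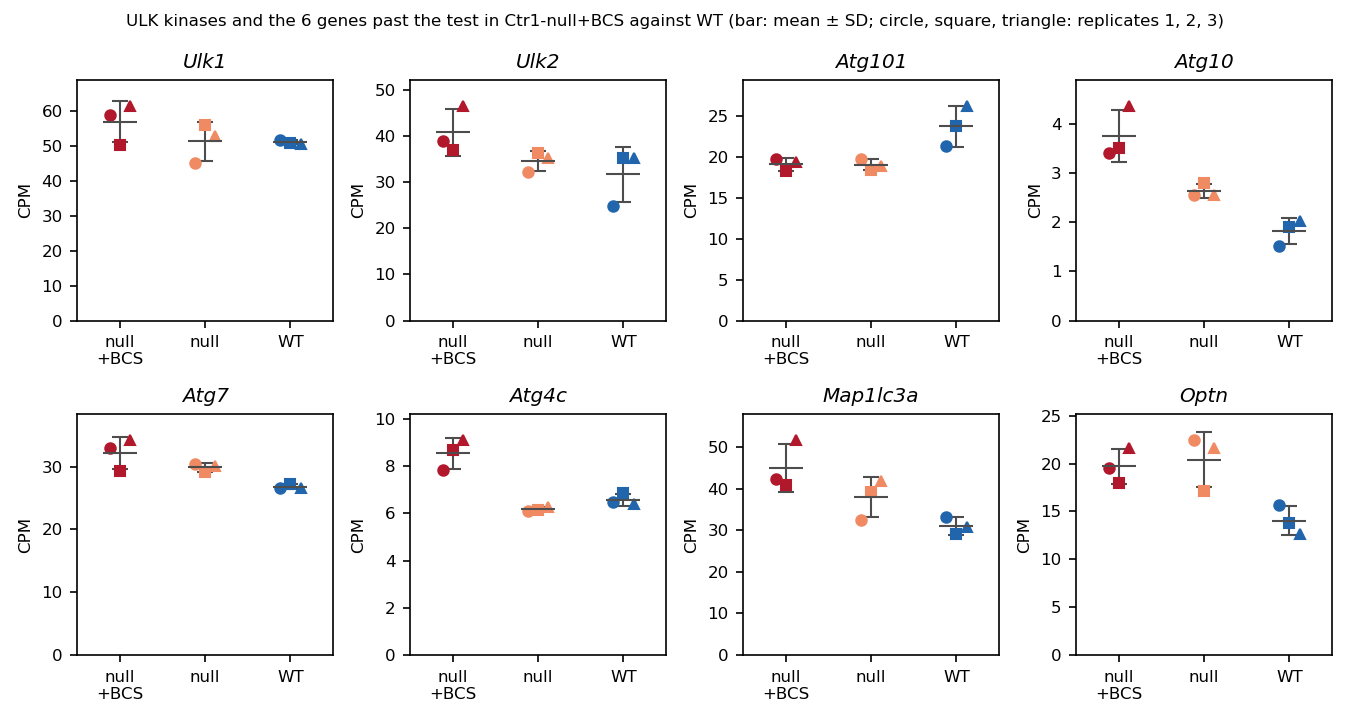
CPM of Ulk1, Ulk2 and the 6 autophagy core genes that passed the test in Ctr1-null+BCS against WT, with axes that start at 0; points are libraries (circle, square and triangle for replicates 1, 2 and 3) and bars give mean ± SD of the 3 libraries of a group. Ctr1-null+BCS libraries lie above all WT libraries in Ulk2, Atg10, Atg7, Atg4c, Map1lc3a and Optn, below them in Atg101, and overlap with them in Ulk1.

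The class III lipid kinase complex is built of the catalytic subunit PIK3C3, the regulatory subunit PIK3R4 and BECN1, with ATG14 or UVRAG as alternative partners, and AMBRA1 binds BECN1. None of these 6 genes passed the test in any comparison, with or without WT replicate 1. Becn1 averaged 88.8 ± 2.2 CPM in Ctr1-null+BCS, 90.2 ± 2.8 in Ctr1-null and 84.7 ± 0.88 in WT, and its libraries in either Ctr1-null group lay just above those of WT. Pik3c3 averaged 34.8 ± 2.3, 33.6 ± 0.58 and 36.5 ± 3.8 CPM, and Pik3r4 averaged 49.5 ± 1.4, 46.2 ± 5.1 and 47.5 ± 3.5 CPM, in Ctr1-null+BCS, Ctr1-null and WT. Uvrag averaged 36.3 ± 4.8 CPM in Ctr1-null+BCS, 36.4 ± 3.5 in Ctr1-null and 41.2 ± 0.17 in WT. Ambra1, which had the smallest p of the 6 in Ctr1-null+BCS against WT, was at 51.5, 48.5 and 49.4 CPM in Ctr1-null+BCS, 48.3, 48.7 and 46.5 CPM in Ctr1-null and 44.3, 46.4 and 47.3 CPM in WT. Its Ctr1-null+BCS libraries lay above those of WT by a small margin, with a log2 fold change of 0.11 ± 0.06 (adjusted p = 0.245). Atg14 averaged 16.8 ± 1.3 CPM in Ctr1-null+BCS, 14.4 ± 0.48 in Ctr1-null and 16.4 ± 1.8 in WT, and had the smallest p of the 6 in the other 2 comparisons, with 0.23 ± 0.11 in Ctr1-null+BCS against Ctr1-null (adjusted p = 0.359) and -0.19 ± 0.11 in Ctr1-null against WT (adjusted p = 0.369).

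WIPI1, WIPI2, WDR45 and WDR45B bind the phosphoinositide made by that kinase, ATG2A and ATG2B transfer lipids into the growing membrane, and ATG9A is the scramblase of the early membrane. None of these 7 genes passed the test with all libraries. Wipi1 came nearest: it was at 38.2, 31.1 and 47.4 CPM in Ctr1-null+BCS, 27.6, 37.5 and 38.1 CPM in Ctr1-null and 29.4, 25.1 and 26.3 CPM in WT. All Ctr1-null+BCS libraries lay above all WT libraries, while the Ctr1-null libraries spread over both ranges. The log2 fold change of Wipi1 in Ctr1-null+BCS against WT was 0.53 ± 0.17 (adjusted p = 0.0580; 0.0203 to 0.210 over the alternatives, 6 of 19 of which passed). Wipi2 averaged 107 ± 3.4 CPM in Ctr1-null+BCS, 108 ± 11 in Ctr1-null and 99.4 ± 2.6 in WT. Wdr45 averaged 28.1 ± 2.5, 29.6 ± 2.3 and 32.8 ± 3.9 CPM, and Wdr45b averaged 61.5 ± 0.83, 62.6 ± 3.2 and 62.3 ± 2.9 CPM, in the same order. Atg2a averaged 59.8 ± 2.1 CPM in Ctr1-null+BCS, 59.6 ± 4.3 in Ctr1-null and 67.5 ± 7.6 in WT, and Atg2b averaged 84.5 ± 6.7, 77.4 ± 8.6 and 84.4 ± 4.0 CPM. Atg9a averaged 58.7 ± 1.1 CPM in Ctr1-null+BCS, 57.2 ± 8.6 in Ctr1-null and 67.1 ± 4.0 in WT, and had the smallest p of the group in Ctr1-null against WT (-0.23 ± 0.10, adjusted p = 0.286). The smallest p in Ctr1-null+BCS against Ctr1-null was that of Atg2b (0.13 ± 0.10, adjusted p = 0.574). Without WT replicate 1, Wipi1 (0.59, adjusted p = 0.0370), Wdr45 (-0.32, adjusted p = 0.0309) and Atg2a (-0.26, adjusted p = 0.0470) passed in Ctr1-null+BCS against WT.

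The conjugation machinery couples ATG12 to ATG5 and ATG8 proteins to lipid: ATG7 is the activating enzyme of both reactions, ATG10 the conjugating enzyme for ATG12, ATG3 that for ATG8 proteins, and ATG16L1 brings the ATG12 conjugate to the membrane. Of the 6 genes, Atg10 and Atg7 were higher in Ctr1-null+BCS than in WT. Atg10 (ENSMUSG00000021619.6, chromosome 13, 90935356 to 91223968, minus strand) was at 3.40, 3.50 and 4.36 CPM in Ctr1-null+BCS, 2.56, 2.79 and 2.54 CPM in Ctr1-null and 1.52, 1.89 and 2.03 CPM in WT. The 3 groups did not overlap, with Ctr1-null between Ctr1-null+BCS and WT. The log2 fold change of Atg10 in Ctr1-null+BCS against WT was 1.05 ± 0.18, or 2.07-fold (adjusted p = 0.00846; 5.94e-06 to 0.0384 over the 19 alternatives, all past the threshold). The steps on either side of Ctr1-null were 0.51 ± 0.17 in Ctr1-null+BCS against Ctr1-null (adjusted p = 0.226) and 0.54 ± 0.18 in Ctr1-null against WT (adjusted p = 0.180), and neither passed. Atg10 also had the lowest counts of the 37 genes, 70 to 219 per library.

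Atg7 (ENSMUSG00000030314.16, chromosome 6, 114643097 to 114860614, plus strand) was at 33.0, 29.3 and 34.2 CPM in Ctr1-null+BCS, 30.5, 29.1 and 30.1 CPM in Ctr1-null and 26.7, 27.3 and 26.5 CPM in WT. The libraries of either Ctr1-null group lay above all WT libraries and overlapped with each other. The log2 fold change was 0.26 ± 0.08 in Ctr1-null+BCS against WT (adjusted p = 0.0472), 0.16 ± 0.08 in Ctr1-null against WT (adjusted p = 0.323) and 0.11 ± 0.08 in Ctr1-null+BCS against Ctr1-null (adjusted p = 0.561). The call was kept without Ctr1-null+BCS replicate 2 (0.0405), Ctr1-null replicate 1 (0.0471) or WT replicate 1 (0.0478) and lost without any 1 of the other 6 libraries (0.0721 to 0.175). Atg12 was at 46.6, 44.5 and 43.3 CPM in Ctr1-null+BCS, 37.5, 38.5 and 35.9 CPM in Ctr1-null and 36.7, 48.5 and 44.0 CPM in WT, so that the Ctr1-null+BCS libraries lay above those of Ctr1-null and within the range of WT. Its log2 fold change of 0.27 ± 0.10 in Ctr1-null+BCS against Ctr1-null did not pass (adjusted p = 0.268), and without WT replicate 1 it passed in Ctr1-null against WT (-0.31, adjusted p = 0.0237). Atg3 averaged 56.7 ± 3.3 CPM in Ctr1-null+BCS, 54.6 ± 2.2 in Ctr1-null and 57.2 ± 4.7 in WT. Atg5 averaged 35.3 ± 2.8, 32.0 ± 2.7 and 36.8 ± 6.0 CPM, and Atg16l1 averaged 40.4 ± 1.1, 42.0 ± 0.36 and 41.0 ± 4.1 CPM, in the same order, and neither passed in any comparison.

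The ATG4 proteases cut ATG8 precursors before conjugation and release ATG8 from lipid afterwards. Atg4c (ENSMUSG00000028550.15, chromosome 4, 99193934 to 99259787, plus strand) was the member of this group that passed the test. It was at 7.83, 8.71 and 9.10 CPM in Ctr1-null+BCS, 6.09, 6.16 and 6.28 CPM in Ctr1-null and 6.47, 6.87 and 6.39 CPM in WT. The Ctr1-null+BCS libraries lay above those of both other groups, and the Ctr1-null libraries just below those of WT. Atg4c was higher in Ctr1-null+BCS than in WT by 0.38 ± 0.11 on the log2 scale (adjusted p = 0.0433). Against Ctr1-null the value was larger, 0.47 ± 0.11, but did not pass (adjusted p = 0.119; 0.00410 with DESeq2, and 0.00410 to 0.407 over all alternatives), and Ctr1-null against WT gave -0.09 ± 0.11 (adjusted p = 0.689). The call against WT was kept without Ctr1-null replicate 1 (0.0430) or WT replicate 1 (0.0437) and lost without any 1 of the other 7 libraries (0.0633 to 0.156). Atg4a averaged 10.5 ± 0.51 CPM in Ctr1-null+BCS, 9.93 ± 0.49 in Ctr1-null and 12.8 ± 2.8 in WT, where replicate 1 was at 9.55 CPM and replicates 2 and 3 at 14.8 and 14.1 CPM. It had the smallest p of the proteases in Ctr1-null against WT (-0.37 ± 0.16, adjusted p = 0.266), and without WT replicate 1 it passed there (-0.54, adjusted p = 0.00762) and in Ctr1-null+BCS against WT (-0.46, adjusted p = 0.00784). Atg4b averaged 41.1 ± 2.7 CPM in Ctr1-null+BCS, 36.7 ± 2.9 in Ctr1-null and 37.2 ± 1.2 in WT, and Atg4d averaged 18.3 ± 0.71, 17.3 ± 0.40 and 17.9 ± 0.98 CPM.

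ATG8 proteins of the LC3 and GABARAP families are the conjugated membrane marks that cargo receptors bind. Map1lc3a (ENSMUSG00000027602.9, chromosome 2, 155276297 to 155278073, plus strand) was at 42.4, 40.8 and 51.6 CPM in Ctr1-null+BCS, 32.6, 39.2 and 42.0 CPM in Ctr1-null and 33.2, 29.0 and 30.7 CPM in WT. All Ctr1-null+BCS libraries lay above all WT libraries, and the Ctr1-null libraries overlapped with both. Map1lc3a was higher in Ctr1-null+BCS than in WT by 0.54 ± 0.12 on the log2 scale, or 1.45-fold (adjusted p = 0.0199). The values in Ctr1-null against WT (0.29 ± 0.12, adjusted p = 0.256) and in Ctr1-null+BCS against Ctr1-null (0.25 ± 0.12, adjusted p = 0.376) did not pass. The call was lost without Ctr1-null+BCS replicate 1 (0.0544) or 3 (0.0788) and without WT replicate 2 (0.0817) or 3 (0.0799).

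Map1lc3b, which encodes the LC3 protein most used as an autophagosome marker, did not pass the test with all libraries. It was at 139, 133 and 141 CPM in Ctr1-null+BCS, 120, 132 and 124 CPM in Ctr1-null and 121, 147 and 149 CPM in WT, with -0.01 ± 0.09 in Ctr1-null+BCS against WT (adjusted p = 0.935). The Ctr1-null+BCS libraries lay within the WT range, and the difference between the changes of Map1lc3a and Map1lc3b was not tested. Gabarap was at 262, 267 and 280 CPM in Ctr1-null+BCS, 235, 245 and 266 CPM in Ctr1-null and 239, 241 and 236 CPM in WT, and its 0.18 ± 0.07 in Ctr1-null+BCS against WT did not pass (adjusted p = 0.115). Gabarapl1 was at 38.1, 36.4 and 40.9 CPM in Ctr1-null+BCS, 37.2, 39.6 and 37.2 CPM in Ctr1-null and 34.2, 51.5 and 51.3 CPM in WT, and Gabarapl2 at 50.4, 54.2 and 45.2, then 60.4, 49.9 and 41.3, then 43.8, 68.1 and 65.7 CPM in the same order. In both genes WT replicate 1 lay well below the other WT libraries, which lay above all other libraries. Neither passed with all libraries. With WT replicate 1 left out, Gabarapl1 was lower in Ctr1-null+BCS (-0.43, adjusted p = 0.00363) and in Ctr1-null (-0.44, adjusted p = 0.00570) than in WT. Gabarapl2 then passed in Ctr1-null+BCS against WT (-0.43, adjusted p = 0.0480) and Map1lc3b in Ctr1-null against WT (-0.24, adjusted p = 0.0425).

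Cargo receptors link ubiquitinated cargo to ATG8 proteins. Optn (ENSMUSG00000026672.11, chromosome 2, 5020642 to 5064051, minus strand), a receptor for mitochondria and bacteria, was at 19.5, 18.0 and 21.6 CPM in Ctr1-null+BCS, 22.4, 17.1 and 21.7 CPM in Ctr1-null and 15.7, 13.8 and 12.6 CPM in WT. Every library of either Ctr1-null group lay above every WT library, and the Ctr1-null+BCS and Ctr1-null libraries overlapped. Optn was higher in Ctr1-null+BCS than in WT by 0.49 ± 0.13 on the log2 scale (adjusted p = 0.0347). The value in Ctr1-null against WT was 0.54 ± 0.13 and did not pass with all libraries (adjusted p = 0.118; 0.0152 without WT replicate 1 and 0.00778 with DESeq2), and Ctr1-null+BCS against Ctr1-null gave -0.05 ± 0.13 (adjusted p = 0.895). The call against WT in Ctr1-null+BCS was lost without any 1 of the 3 Ctr1-null+BCS libraries or without WT replicate 2 or 3 (0.0502 to 0.138).

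Sqstm1, the receptor degraded with its cargo, was at 288, 249 and 266 CPM in Ctr1-null+BCS, 220, 235 and 216 CPM in Ctr1-null and 223, 277 and 281 CPM in WT. The Ctr1-null+BCS libraries lay above those of Ctr1-null and overlapped with those of WT. Its 0.26 ± 0.10 in Ctr1-null+BCS against Ctr1-null did not pass (adjusted p = 0.285), and without WT replicate 1 Sqstm1 was lower in Ctr1-null than in WT (-0.32, adjusted p = 0.0268). Nbr1 averaged 133 ± 4.6 CPM in Ctr1-null+BCS, 127 ± 5.4 in Ctr1-null and 119 ± 6.3 in WT, and Tax1bp1 averaged 197 ± 3.8, 185 ± 5.4 and 190 ± 17 CPM, and neither passed in any comparison.

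**Figure D3:**
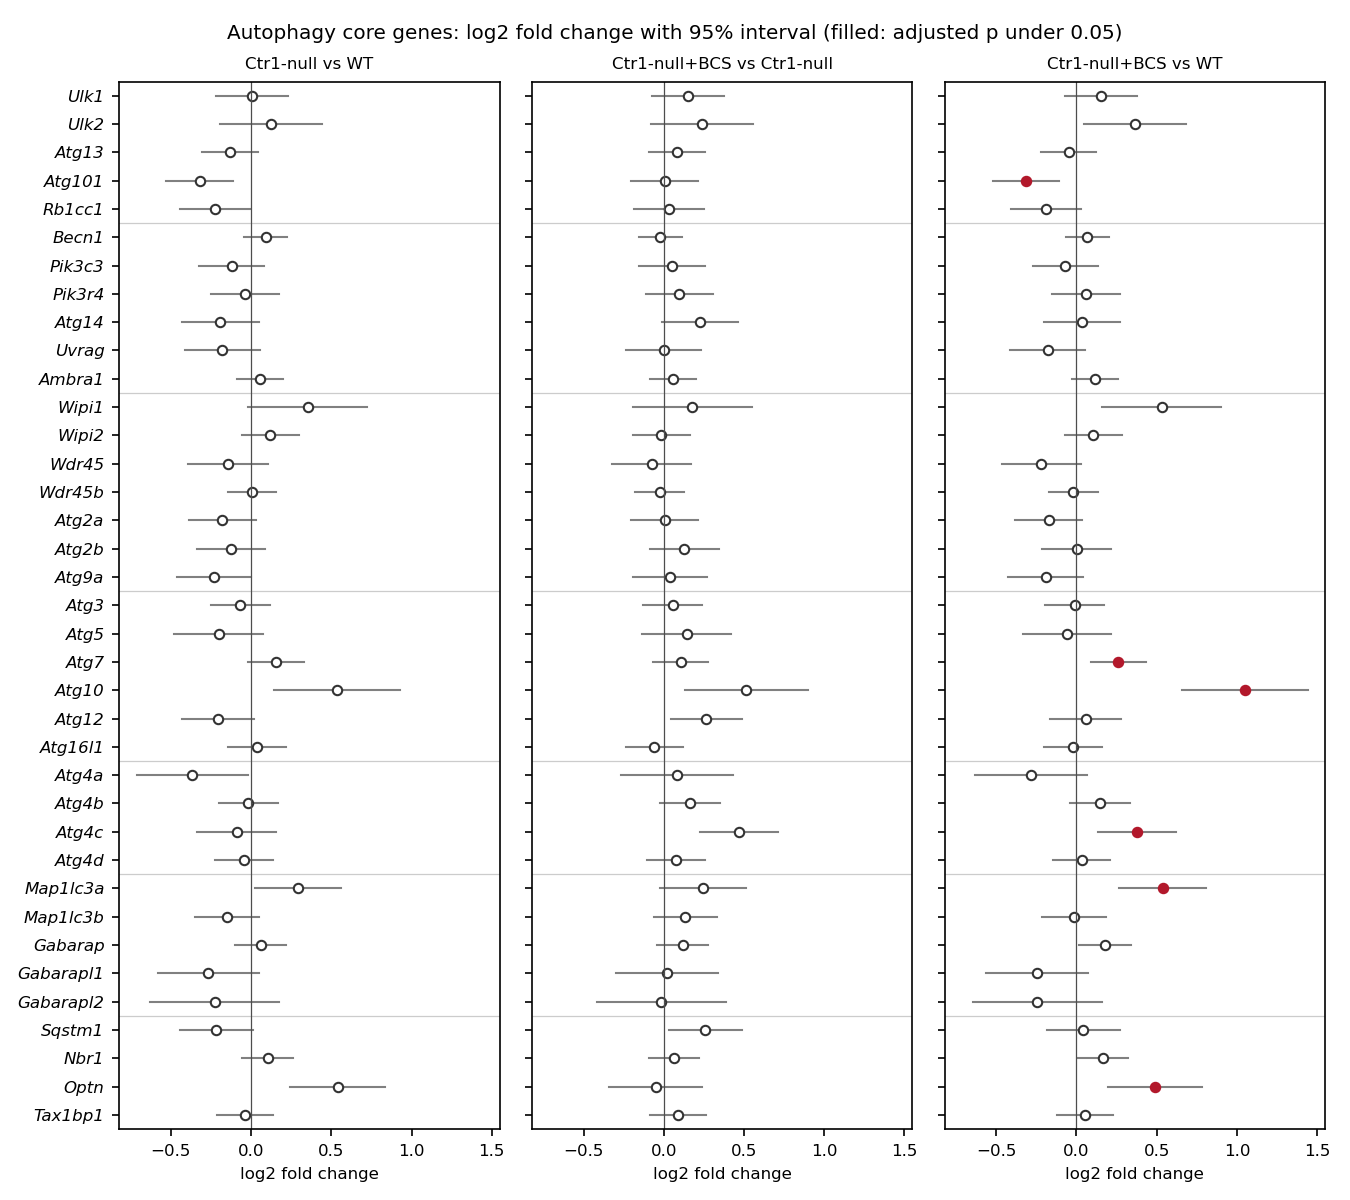
Log2 fold change of each autophagy core gene in Ctr1-null against WT, Ctr1-null+BCS against Ctr1-null and Ctr1-null+BCS against WT, on 1 common axis with 95% intervals from the edgeR fit; filled points have an adjusted p under 0.05 over all 18408 genes tested. Filled points appear only in the panel of Ctr1-null+BCS against WT, for Atg101 below 0 and for Atg7, Atg10, Atg4c, Map1lc3a and Optn above 0.

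The calls against WT among the 37 genes depended on the libraries used and were most numerous without WT replicate 1. The genes called with all libraries kept their call and direction there, and most added calls were lower. Without WT replicate 1, 13 of the 37 genes passed in Ctr1-null+BCS against WT, where 31% of all genes did (15.7% higher and 15.3% lower). The 6 higher ones were Wipi1, Atg7, Atg10, Atg4c, Map1lc3a and Optn, and the 7 lower ones were Atg101, Rb1cc1, Wdr45, Atg2a, Atg4a, Gabarapl1 and Gabarapl2. In Ctr1-null against WT 8 of the 37 passed, where 17.3% of all genes did (9.22% higher and 8.05% lower), with Optn higher and Atg101, Rb1cc1, Atg12, Atg4a, Map1lc3b, Gabarapl1 and Sqstm1 lower. Between Ctr1-null+BCS and Ctr1-null 0 passed and 6 had an unadjusted p under 0.05, where 0.972% and 19.9% of all genes did. Leaving out WT replicate 2, WT replicate 3, Ctr1-null+BCS replicate 1 or Ctr1-null+BCS replicate 3 left 1 call among the 37 in Ctr1-null+BCS against WT, that of Atg10. Calls over all genes in that comparison fell as well without WT replicate 3, to 568 against 2916 with all libraries. Without WT replicate 3 such a loss is thus not special to these genes. For the other libraries named, the count over all genes is not given here.

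**Figure D4:**
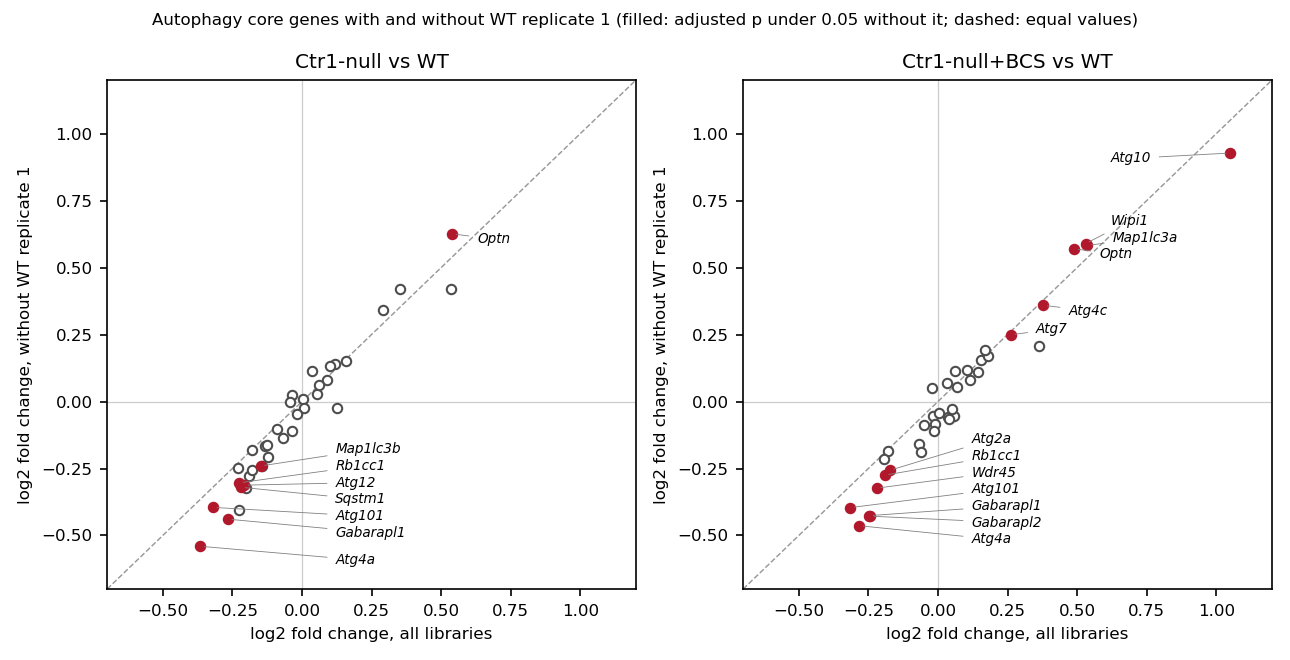
Log2 fold change of each autophagy core gene without WT replicate 1 (vertical) against that with all libraries (horizontal), for Ctr1-null against WT and Ctr1-null+BCS against WT; filled points are past the test without that library and the dashed line marks equal values. Most genes below 0 lie under the dashed line, Gabarapl1 among them with -0.43 without the library in Ctr1-null+BCS against WT, and Atg10 stays past the test in that panel.

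Levels between genes were compared per length, as CPM per kilobase of the longest coding transcript. Gabarap was the most abundant at 200 ± 6.9 in Ctr1-null+BCS and 176 ± 1.8 in WT, followed by Sqstm1 at 100 ± 7.3 in Ctr1-null+BCS and 97.4 ± 12 in WT. Ulk1 lay above Ulk2, at 10.9 ± 1.1 against 7.12 ± 0.89 in Ctr1-null+BCS and 9.80 ± 0.093 against 5.54 ± 1.0 in WT. Atg10, at 2.37 ± 0.33 in Ctr1-null+BCS and 1.14 ± 0.17 in WT, and Atg4c, at 2.69 ± 0.21 in Ctr1-null+BCS and 2.07 ± 0.080 in WT, were the lowest. Atg10 was also the lowest per kilobase of all merged exons. Within the ATG8 genes the order depended on the length used: per transcript length Map1lc3b was at 52.8 ± 5.9 and Map1lc3a at 27.9 ± 1.9 in WT, while per merged exon length they were at 18.5 and 26.2.

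Genes around the core were followed in 4 lists named by function. No test compared these lists with the core. DESeq2 called 1056 of all genes in Ctr1-null against WT, where edgeR called 2. In Ctr1-null+BCS against Ctr1-null it called 711, where edgeR called 10. The DESeq2 counts in these lists therefore have a larger background in both comparisons. Of 30 upstream regulators, 4 passed in Ctr1-null+BCS against WT (2 higher and 2 lower), where 15.8% of all genes did, so the count is near the background. Prkaa2, a catalytic subunit of the energy sensor AMPK, which phosphorylates ULK1, was higher at 17.5, 18.9 and 19.9 CPM in Ctr1-null+BCS, against 11.7, 12.7 and 11.2 CPM in WT (0.67 ± 0.11, adjusted p = 0.00756). Sesn2, a stress-induced inhibitor of mTORC1 signalling, was at 59.8, 61.9 and 64.2 CPM in Ctr1-null+BCS, 36.4, 41.1 and 40.3 CPM in Ctr1-null and 45.2, 47.5 and 45.5 CPM in WT. The 3 groups did not overlap, and Sesn2 was higher in Ctr1-null+BCS than in Ctr1-null (0.66 ± 0.07, adjusted p = 0.0161) and than in WT (0.43 ± 0.07, adjusted p = 0.00846). In Ctr1-null+BCS against Ctr1-null it was the one gene of the core or of these lists past the test with edgeR. That 1 call among the upstream regulators fell to 0 with the replicate block and without any 1 of the Ctr1-null+BCS or Ctr1-null libraries or WT replicate 3, while DESeq2 called 4. Rictor, a subunit of mTORC2, was lower in Ctr1-null+BCS at 95.9, 101 and 99.6 CPM, against 140, 144 and 138 CPM in WT (-0.51 ± 0.09, adjusted p = 0.00904), and Hmgb1 was lower by -0.34 ± 0.08 (adjusted p = 0.0235). With edgeR none passed in Ctr1-null against WT, where DESeq2 called 4. At an unadjusted p under 0.05 edgeR had 6 there (1 higher and 5 lower), where 17.6% of all genes passed. Ddit4, a further inhibitor of mTORC1, had the smallest p in that comparison (-0.51 ± 0.13, adjusted p = 0.128). The list's median was 0.02 in Ctr1-null+BCS against WT, -0.0049 in Ctr1-null against WT and 0.04 in Ctr1-null+BCS against Ctr1-null.

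Of 20 receptors for organelle autophagy, 0 were higher and 2 lower in Ctr1-null+BCS than in WT, where 15.8% of all genes passed, so the count is not above the background. The 2 are receptors of the endoplasmic reticulum. Retreg1 was at 49.0, 53.0 and 44.5 CPM in Ctr1-null+BCS, 53.1, 62.2 and 40.8 CPM in Ctr1-null and 62.7, 93.9 and 91.0 CPM in WT (-0.76 ± 0.18 in Ctr1-null+BCS against WT, adjusted p = 0.0237). Rtn3 was at 287, 282 and 270 CPM in Ctr1-null+BCS, 315, 312 and 296 CPM in Ctr1-null and 356, 429 and 426 CPM in WT (-0.53 ± 0.09, adjusted p = 0.00804). The Ctr1-null+BCS libraries of either gene lay below all WT libraries. In Ctr1-null against WT none passed with edgeR, DESeq2 called 3, the median was -0.21, and Rtn3 had the smallest p (-0.39 ± 0.09, adjusted p = 0.0992). There 8 of the 20 had an unadjusted p under 0.05 (1 higher and 7 lower). This is above the 17.6% of all genes, and the excess was not tested. Without WT replicate 1, 11 of the 20 passed there, 10 of them lower, where 17.3% of all genes did. None passed with edgeR or DESeq2 in Ctr1-null+BCS against Ctr1-null. There 3 of the 20 had an unadjusted p under 0.05, where 14.7% of all genes did. Pink1, the kinase that marks damaged mitochondria, had the smallest p in that comparison (0.58 ± 0.19, adjusted p = 0.217).

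Of 20 genes for autophagosome membrane supply and fusion, Vps39, a subunit of the HOPS tether, was higher in Ctr1-null+BCS than in WT (0.29 ± 0.07, adjusted p = 0.0294), and Tmem41b, a scramblase of the endoplasmic reticulum, was lower (-0.31 ± 0.09, adjusted p = 0.0413). Of 32 lysosomal genes named as TFEB targets, 2 were higher and 4 lower in Ctr1-null+BCS than in WT. As 15.8% of all genes passed, the counts of both lists are near the background. The higher ones were the protease Ctsf, at 31.2, 29.1 and 38.3 CPM in Ctr1-null+BCS against 17.5, 15.1 and 15.2 CPM in WT (1.04 ± 0.20, adjusted p = 0.0116), and the glucosidase Gaa (0.45 ± 0.13, adjusted p = 0.0429). Among the lower ones were Atp6ap1, an accessory subunit of the proton pump (-0.37 ± 0.09, adjusted p = 0.0226), Gla (-0.36 ± 0.11, adjusted p = 0.0494) and Cd63 (-0.30 ± 0.08, adjusted p = 0.0347). With edgeR none of either list passed in Ctr1-null against WT, while DESeq2 called 0 fusion and 4 lysosomal genes. At an unadjusted p under 0.05 edgeR had 2 fusion genes (1 higher and 1 lower) and 11 lysosomal genes (1 higher and 10 lower). Over all genes 17.6% passed at that level, so the lysosomal count is above the background, and the excess was not tested. In Ctr1-null against WT the smallest p was that of Tmem41b (-0.25 ± 0.09, adjusted p = 0.204) and of Atp6ap1 (-0.37 ± 0.09, adjusted p = 0.111). None passed with edgeR in Ctr1-null+BCS against Ctr1-null either, while DESeq2 called 1 fusion and 3 lysosomal genes. At an unadjusted p under 0.05 edgeR had 2 fusion genes (2 higher) and 7 lysosomal genes (6 higher and 1 lower) there, where 14.7% of all genes passed. The smallest p there was that of Vps39 (0.27 ± 0.07, adjusted p = 0.175) and of Ctsf (0.90 ± 0.20, adjusted p = 0.106). Without WT replicate 1 the calls in Ctr1-null+BCS against WT were 8 of 30 upstream regulators, 9 of 20 organelle receptors, 5 of 20 fusion genes and 11 of 32 lysosomal genes, where 31% of all genes passed, and Gla was then not among them (-0.28, adjusted p = 0.0668). Leaving out some other libraries lowered the counts that all libraries gave. Calls over all genes in Ctr1-null+BCS against WT also fell, to 568 without WT replicate 3 against 2916 with all libraries. They fell with the replicate block too. Whether the lists fell more than all genes was not tested. The fusion genes fell to 0 without Ctr1-null+BCS replicate 1 or 3 or WT replicate 2 or 3, with the replicate block and with no filter. The lysosomal genes fell to 0 without Ctr1-null+BCS replicate 3 or WT replicate 2 or 3, and to 1 without Ctr1-null+BCS replicate 1 or with the block. The organelle receptors fell to 1 without Ctr1-null+BCS replicate 1 or 3 or WT replicate 2 or 3, and the upstream regulators to 3 without any 1 of the Ctr1-null+BCS libraries or WT replicate 2 or 3.

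The labels do not state whether counting used strand, so genes with exons that overlap another gene on the opposite strand are uncertain. The overlapping gene had 82.0% as many counts as Map1lc3b (Zcchc14), 232% as many as Atg4d (Kri1), 32.5% as many as Atg2b (Gskip) and 28.6% as many as Atg9a (Ankzf1), and 4.22% or fewer for the others with such an overlap. The authors' scaled table divides each count by a factor for each gene and library. The range of these factors over the libraries was 0.10 on the log2 scale at the median of the 37 genes, as over all genes with enough counts, and the largest were 0.38 for Uvrag, 0.32 for Atg10 and 0.26 for Ulk1. For Ulk1 the mean log2 factor was 0.04 in Ctr1-null+BCS, 0.05 in Ctr1-null and -0.09 in WT. With these factors the value of Ulk1 was 0.02 in Ctr1-null+BCS against WT and -0.14 in Ctr1-null against WT, and Atg10 was at 1.02 in Ctr1-null+BCS against WT (adjusted p = 0.00990).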

How the data were processed

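RNA was sequenced from 9 libraries, 3 a group. The authors deposited unnormalised estimated counts for each gene, already whole numbers. They also deposited the same counts divided by a factor for each gene and library (a scaled signal). How these factors were made is not given in the sources used here. FastQC, STAR, Salmon, DESeq2 and the build GRCm38 are named in the submitters' processing notes, without versions or roles. Of 52661 rows, 52566 matched a GENCODE M21 symbol by Ensembl identifier and 17728 had no counts. Libraries held 38962036 to 57206337 counts. A count of 0 allows up to 3 counts, 0.0524 to 0.0770 CPM, for counting error only.

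Counts were filtered (filterByExpr, minimum count 10, total 15), scaled by TMM and tested with the quasi-likelihood test of edgeR 4.0.16 (R 4.3.3) on all 9 libraries in 3 groups (6 residual degrees of freedom, common biological coefficient of variation 0.169). Tests were 2-sided, with Benjamini-Hochberg adjustment over all 18408 genes, never over the list alone, and genes below 0.05 after adjustment were called. Standard errors were computed from the fold change and its F statistic, and CPM use TMM-scaled totals. The edgeR fit, DESeq2 and limma-voom were tested on simulated data. The 19 alternatives were DESeq2 1.42.0, limma-voom (limma 3.58.1), edgeR with other scaling (library size alone, upper-quartile, or the size factors of DESeq2), no filter, a stricter filter (1 CPM in 3 libraries), only the groups compared, the authors' factors, a replicate block and leaving out each library.

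The 37 genes and the other lists were chosen with earlier results of these data known. By rule, errors and p-values are given for Ulk1, Ulk2, genes called in any comparison and the smallest p of each role group, and in other lists for up to 3 calls a direction or the smallest p. Rb1cc1, Wdr45, Atg2a, Atg4a, Atg12, Gabarapl1, Gabarapl2, Map1lc3b, Sqstm1 and Gabarap get further values outside it, chosen after these were seen. Of the lysosomal genes called, 1 is counted but not reported by name. Figures were drawn with matplotlib.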

Additional observations from a re-analysis of the deposited data

How the results depend on the processing

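Every count and median below is for the 37 autophagy core genes unless all genes are named. In Ctr1-null against WT, where 2 of all genes were called, 4 were called with DESeq2's size factors, upper-quartile factors, library size alone, the stricter filter or the authors' factors, 265 with no filter, 1056 with DESeq2, 6 with limma-voom, and 1 with only the groups compared or with the replicate block. In Ctr1-null+BCS against Ctr1-null (10 of all genes) there were 114 with no filter, 711 with DESeq2 and 2 with the replicate block. In Ctr1-null+BCS against WT (2916 of all genes) the replicate block left 1543, and library size alone called 2064 higher and 784 lower, against 1576 and 1340. Among the 37 genes, DESeq2 called 2 in Ctr1-null against WT and 1 in Ctr1-null+BCS against Ctr1-null, in both of which edgeR called 0. In Ctr1-null+BCS against WT, where 6 were called, there were 3 with only the groups compared, 2 with the replicate block and 9 with library size alone, all higher, with Ulk2, Ambra1, Wipi1 and Gabarap gained and Atg101 lost.

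The median in Ctr1-null against WT (-0.07) was -0.027 with upper-quartile factors and -0.013 with library size alone, that in Ctr1-null+BCS against WT (0.04) was 0.078 and 0.14, and that in Ctr1-null+BCS against Ctr1-null (0.08) was 0.13 with library size alone. The median of all genes moved as well. With upper-quartile factors it was 0.044 in Ctr1-null against WT and 0.047 in Ctr1-null+BCS against WT. With library size alone it was 0.056 and 0.11 in these, and 0.049 in Ctr1-null+BCS against Ctr1-null. With TMM these 3 medians of all genes were 0.0050, 0.0065 and 0.0017.

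Leaving out 1 library at a time gave 568 to 5840 calls of all genes in Ctr1-null+BCS against WT, 1 to 3254 in Ctr1-null against WT and 0 to 183 in Ctr1-null+BCS against Ctr1-null. Calls among the 37 ran between 1 and 13, between 0 and 8 and at 0, genes whose groups did not overlap between 15 and 24, 8 and 27 (both highest without WT replicate 1) and 9 and 17 (highest without Ctr1-null+BCS replicate 2), and the medians were -0.043 to 0.056, -0.11 to -0.060 and 0.066 to 0.098, in the same order. Leaving out a library of a compared group leaves fewer chances to overlap for every gene. Without WT replicate 1 the share of all genes without overlap was 64.1% in Ctr1-null+BCS against WT, against 37.1% with all libraries. In Ctr1-null against WT it was 50.6%, against 18.1% with all libraries. The share of all genes without Ctr1-null+BCS replicate 2 is not given, so the count of 17 has no background here. The cause of the differences between settings was not tested.

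Values near 0 turned sign. Atg101 in Ctr1-null+BCS against Ctr1-null was -0.0052 with DESeq2, -0.0053 with its size factors and -0.0022 with the authors' factors, and -0.018 to 0.034 when 1 library was left out. Ulk1 in Ctr1-null against WT was -5.96e-04 with limma-voom, -0.14 with the authors' factors and -0.061 to 0.089 when 1 library was left out. Leaving out 1 library gave -0.16 to 0.025 for Optn in Ctr1-null+BCS against Ctr1-null and -0.025 to 0.21 for Ulk2 in Ctr1-null against WT. Deviations of same-numbered libraries correlated at -0.319 to 0.275 and those of other pairs at -0.287 to 0.412, so same-numbered libraries were not more alike. With only 3 libraries a group, these values cannot exclude a weak link between same-numbered libraries. Atg10 in Ctr1-null+BCS against WT was called in all 19 alternatives, the replicate block included (adjusted p = 0.0241), Map1lc3a in 15, Optn in 13, Atg4c in 9, Atg7 in 7 and Atg101 in 5.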
